A study of Mus musculus with 6 samples.

Results

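The genes described here are 8 members of the T helper 1 (Th1) program, namely Eomes, Tbx21, Runx3, Stat4, Il12rb1, Il12rb2, Cxcr3 and Ifng. They were chosen by name, with earlier results of these data known, as the probe sets that the platform annotation assigns to 1 of these symbols alone. Each member had exactly 1 such probe set, and the 8 are among 22180 genes measured. All samples were CD4+ T cells from mouse spleen, taken out with magnetic beads and stimulated with anti-CD3/CD28 antibody at 1 µg/ml for 12 hours. The groups differed in the medium. ConCM is control conditioned medium, PlGFCM is medium of clones of the human embryonic kidney line HEK-293 in which PlGF2, a form of placental growth factor, was overexpressed, and IL6_ConCM is the control medium with IL6 added at 20 ng/ml. Each group had 2 arrays, and the labels give no strain, age or genotype and do not state if a replicate was its own mouse or its own culture. The PlGFCM is a whole conditioned medium from clones of 1 cell line, so the comparison is of media and not of the purified factor.

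T-bet, the protein of Tbx21, and Eomes are related T-box transcription factors. IL-12 signals through the receptor chains Il12rb1 and Il12rb2 to Stat4, and T-bet and Runx3 then act on Ifng, which encodes the cytokine interferon gamma, and on Cxcr3, a chemokine receptor. Eomes is best known from CD8 T cells and natural killer (NK) cells, where it sustains cytotoxic and memory functions, and it is also found in some CD4 T cells. IL-6 is known mainly for favouring other helper fates over Th1.

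The values are log2 levels of a probe set, and a difference of 1 is a 2-fold change. Levels of different probe sets were set against each other only in sums of markers and in remarks on high or low levels. The brightest markers weigh most in such a sum. The median of all probe sets ran from 5.47 to 5.51 over the 6 arrays. The array of PlGFCM replicate 2 stood apart by the female-specific transcript Xist, at 8.38 against 3.58 to 3.95 on the other 5. The Y-linked genes were measured there too, each at its lowest of the 6 arrays. Uty was at 7.50 against 7.77 to 8.14 on the others, Kdm5d at 7.07 against 7.42 to 7.77, and Eif2s3y at 8.59 against 8.90 to 9.14. Whether this array held cells of both sexes was not tested. Since it stood apart, the members and the calls in PlGFCM are also given without it. The T cell markers Cd4 (11.13 to 11.40) and Cd3e (11.84 to 12.17) were high on every array. Tests are by limma on all genes. A gene is said to rise or fall where its Benjamini-Hochberg adjusted p over the 22180 genes was under 0.05. The PlGFCM arrays differ in Xist and so were not technical repeats of the same RNA. In the other groups replicates may be technical, so p-values stand for the spread of these arrays alone. With 2 arrays against 2, an exact permutation test cannot give a two-sided p below 0.333 and was not used.

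Eomes was the member that fell. Its log2 level was 7.99 and 7.50 on the ConCM arrays, 6.48 and 6.32 on the PlGFCM arrays, and 6.51 and 6.09 on the IL6_ConCM arrays. Both ConCM arrays lay above all 4 treated arrays, and the treated groups overlapped each other. The group means were 7.75 ± 0.35 (SD, n = 2) in ConCM, 6.40 ± 0.11 in PlGFCM and 6.30 ± 0.30 in IL6_ConCM. Eomes was 2.54-fold lower in PlGFCM than in ConCM (95% interval 1.95 to 3.30), a log2 change of -1.34 ± 0.17 (SE) with a limma adjusted p of 0.00908. With IL6 it was 2.72-fold lower than in ConCM (95% interval 2.09 to 3.54), a log2 change of -1.44 ± 0.17 with a limma adjusted p of 0.00804. The comparisons share the ConCM arrays, so these decreases are not independent of each other. The difference between PlGFCM and IL6_ConCM was 0.10 log2 units with a 95% interval of -0.28 to 0.48, which does not show that the media act alike. In samples of many cells, fewer Eomes-expressing cells and less Eomes RNA per cell cannot be told apart.

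Single arrays decided whether the Eomes decrease passed. In PlGFCM it did not pass without PlGFCM replicate 2 (log2 change -1.27, limma adjusted p = 0.136) or without PlGFCM replicate 1 (-1.42, adjusted p = 0.0817). With IL6 it did not pass without IL6_ConCM replicate 2 (-1.23, adjusted p = 0.0552). It also did not pass in either comparison when limma was run without an intensity trend (adjusted p = 0.176 and 0.242). The direction was the same in all 17 alternatives of each comparison with ConCM, with log2 changes of -1.59 to -1.10 for PlGFCM and -1.69 to -1.20 for IL6. The plot of Eomes under each alternative gives these values. Most alternatives could not have turned the direction. Eomes has 1 probe set, so filters, probe set rules and variance models left its change as it was. Both ConCM arrays lay above all treated arrays, so leaving out any 1 array could not turn the sign. Quantile normalization and subtracting array medians could move the change, and gave -1.38 and -1.34 for PlGFCM and -1.46 and -1.45 for IL6.

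**Figure D1:**
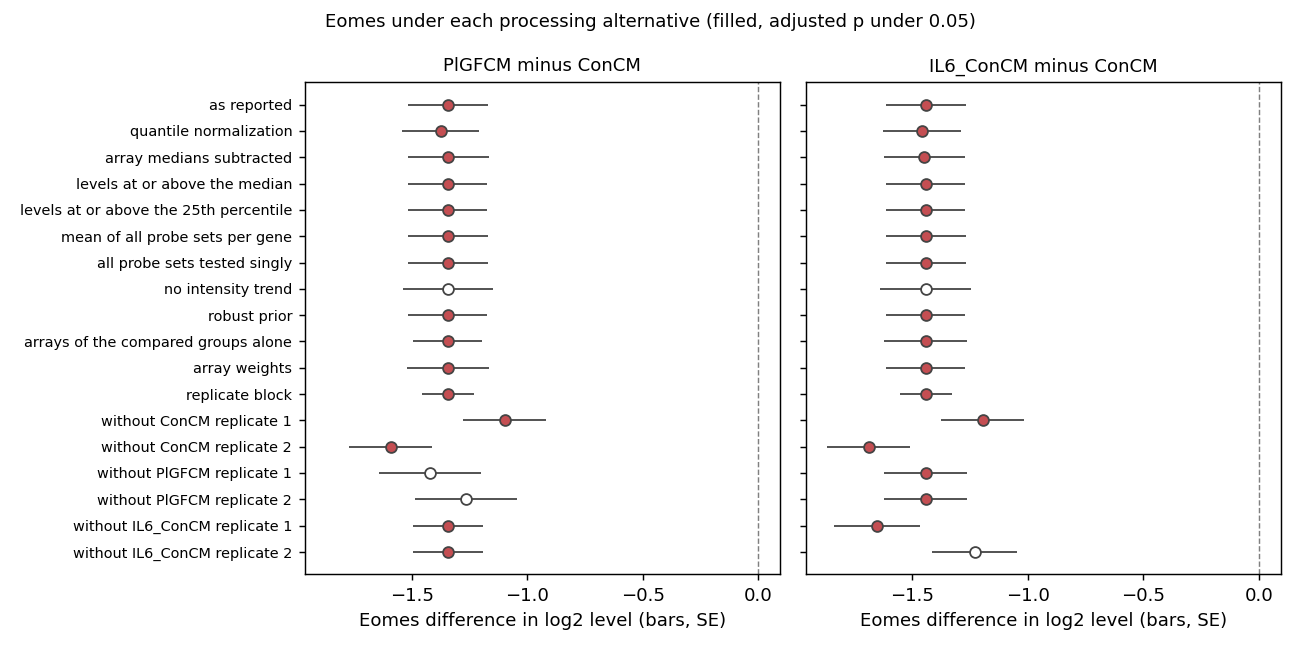
The difference in log2 level of Eomes (horizontal axis, log2 units, bars for the standard error) from ConCM in PlGFCM (left) and IL6_ConCM (right), for the reported fit and 17 alternatives, 1 per line. Filled points had an adjusted p under 0.05, and all points lie left of 0, between -1.59 and -1.10 for PlGFCM and between -1.69 and -1.20 for IL6.

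Tbx21, which encodes T-bet and is the defining factor of Th1 cells, had smaller differences than Eomes and did not pass in any of the 3 comparisons. Its log2 level was 9.00 and 8.93 under ConCM, 8.67 and 8.76 under PlGFCM, and 8.66 and 8.24 under IL6_ConCM. Here too both ConCM arrays were above the 4 treated arrays, and IL6_ConCM replicate 2 was the lowest. The difference from ConCM was -0.25 in PlGFCM (95% interval -0.52 to 0.01, limma adjusted p = 0.592). It was -0.52 with IL6 (95% interval -0.78 to -0.25, limma adjusted p = 0.230), and without IL6_ConCM replicate 1, which leaves the lowest array alone in its group, it was -0.73 with an adjusted p of 0.0341. The intervals are for single genes and are not adjusted for the number of genes, so an interval that leaves out 0 can go with an adjusted p that does not pass.

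Runx3, a partner of T-bet at Ifng, was nearly level. It was at 7.48 and 7.38 under ConCM, 7.52 and 7.59 under PlGFCM, and 7.49 and 7.41 under IL6_ConCM. The PlGFCM arrays lay just above the ConCM arrays, and the IL6_ConCM arrays overlapped them. The differences from ConCM were 0.12 (95% interval -0.09 to 0.33) and 0.02 (-0.19 to 0.23), with limma adjusted p of 0.774 and 1.000.

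The promoters of Eomes and Tbx21 are shown because these related factors differed from ConCM by unequal amounts. The sequences are RefSeq promoters on build GRCm38.p6, from 250 bases before to 50 after the transcription start, on the strand of the gene. Eomes is at chr9:118477939-118478238 on the plus strand and Tbx21 at chr11:97115282-97115581 on the minus strand.
Eomes: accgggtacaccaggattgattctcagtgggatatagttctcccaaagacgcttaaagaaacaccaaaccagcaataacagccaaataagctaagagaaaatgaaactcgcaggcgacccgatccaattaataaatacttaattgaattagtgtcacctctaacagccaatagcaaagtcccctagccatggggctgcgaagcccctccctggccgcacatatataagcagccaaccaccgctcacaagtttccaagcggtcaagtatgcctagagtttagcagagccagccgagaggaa
Tbx21: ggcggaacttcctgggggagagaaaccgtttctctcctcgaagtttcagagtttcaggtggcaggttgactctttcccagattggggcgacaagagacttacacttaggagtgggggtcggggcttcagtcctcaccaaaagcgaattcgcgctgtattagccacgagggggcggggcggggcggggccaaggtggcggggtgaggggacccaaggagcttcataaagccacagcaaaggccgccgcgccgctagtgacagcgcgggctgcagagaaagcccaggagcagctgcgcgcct
Capitals would mark matches on either strand to the T-box core GGTGTGA, the STAT palindrome TTCNNNGAA or the Runx core TGTGGT, and these windows hold none. Of 32851 RefSeq promoters of 300 bases, 3.98% held the T-box core, 8.3% the STAT palindrome and 16.8% the Runx core. A window without these letters says nothing about binding elsewhere. Promoters were found for 7 of the 8 members, 9 in all, and not for Il12rb1. The T-box core was in 0 of the 9, the STAT palindrome in 2 and the Runx core in 2, and no matches overlapped.

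Among the genes of the IL-12 pathway none passed. Il12rb1, the receptor chain shared by IL-12 and IL-23, was at 8.79 and 8.61 under ConCM, 8.43 and 8.39 under PlGFCM, and 8.69 and 8.43 under IL6_ConCM. Both PlGFCM arrays were below both ConCM arrays, and the IL6_ConCM arrays overlapped ConCM and lay just above PlGFCM. The difference between PlGFCM and ConCM was -0.29 (95% interval -0.51 to -0.06, limma adjusted p = 0.398) and that between IL6_ConCM and ConCM -0.14 (-0.36 to 0.09, adjusted p = 0.988). Il12rb2, the inducible chain that makes the receptor specific for IL-12, was at 10.98 and 10.75 under ConCM, 10.72 and 10.83 under PlGFCM, and 11.04 and 10.73 under IL6_ConCM. All 3 groups overlapped, with differences from ConCM of -0.08 (-0.31 to 0.14) and 0.02 (-0.21 to 0.24). Stat4, the transducer of IL-12 signals, was at 10.73 and 11.04 under ConCM, 10.85 and 10.66 under PlGFCM, and 10.49 and 10.81 under IL6_ConCM. Its groups overlapped as well, and the differences from ConCM were -0.13 (-0.39 to 0.13) and -0.24 (-0.50 to 0.02). For Il12rb2 and Stat4 the limma adjusted p ran from 0.823 to 1.000 in the comparisons with ConCM.

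Ifng was lowest with IL6. Its log2 level was 7.44 and 6.83 under ConCM, 6.92 and 7.07 under PlGFCM, and 6.76 and 6.16 under IL6_ConCM. The IL6_ConCM arrays were below the other 4, by a narrow margin at ConCM replicate 2, while the PlGFCM arrays lay between the ConCM arrays. The difference between IL6_ConCM and ConCM was -0.68 (95% interval -1.14 to -0.22, limma adjusted p = 0.556), and it ran from -0.99 to -0.37 as single arrays were left out. That between PlGFCM and ConCM was -0.15 (-0.61 to 0.31, adjusted p = 0.907), and that between PlGFCM and IL6_ConCM was 0.53 (0.07 to 0.99, adjusted p = 0.998). Without ConCM replicate 1 the difference between PlGFCM and ConCM turned to 0.16.

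Cxcr3, which guides Th1 cells to inflamed tissue, had the opposite sign to Eomes and Tbx21. It was at 7.53 and 7.60 under ConCM, 7.77 and 7.76 under PlGFCM, and 7.71 and 7.95 under IL6_ConCM. All 4 treated arrays lay above both ConCM arrays. The differences from ConCM were 0.20 (95% interval -0.02 to 0.42, limma adjusted p = 0.621) and 0.27 (0.05 to 0.49, adjusted p = 0.758), so neither passed.

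The promoters that hold the STAT palindrome are those of Ifng, at chr10:118440796-118441095 on the plus strand, and Il12rb2, at chr6:67376139-67376438 on the minus strand. They are shown because IL6 acts through STAT proteins, with the match in capitals.
Ifng: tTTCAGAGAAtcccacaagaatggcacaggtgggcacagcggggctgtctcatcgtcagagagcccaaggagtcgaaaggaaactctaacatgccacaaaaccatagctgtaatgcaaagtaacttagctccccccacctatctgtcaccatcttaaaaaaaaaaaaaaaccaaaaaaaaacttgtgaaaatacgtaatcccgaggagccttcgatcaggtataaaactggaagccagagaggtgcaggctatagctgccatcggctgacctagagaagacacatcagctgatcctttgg
Il12rb2: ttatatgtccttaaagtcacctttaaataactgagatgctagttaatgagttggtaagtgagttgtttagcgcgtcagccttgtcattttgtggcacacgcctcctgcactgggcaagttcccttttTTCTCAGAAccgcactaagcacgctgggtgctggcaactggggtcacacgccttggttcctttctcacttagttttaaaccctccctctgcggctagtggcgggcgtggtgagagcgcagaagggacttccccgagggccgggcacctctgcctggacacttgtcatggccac
The match begins 249 bases before the start of Ifng and 123 bases before that of Il12rb2. Of these genes, Ifng was lower on both IL6_ConCM arrays than on any ConCM array and Il12rb2 overlapped, neither passing the test. The Runx core was found in the promoter of Cxcr3 and in 1 of 2 promoters of Runx3, at 2 places in each. A match is a run of letters and not a measured binding site.

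**Figure D2:**
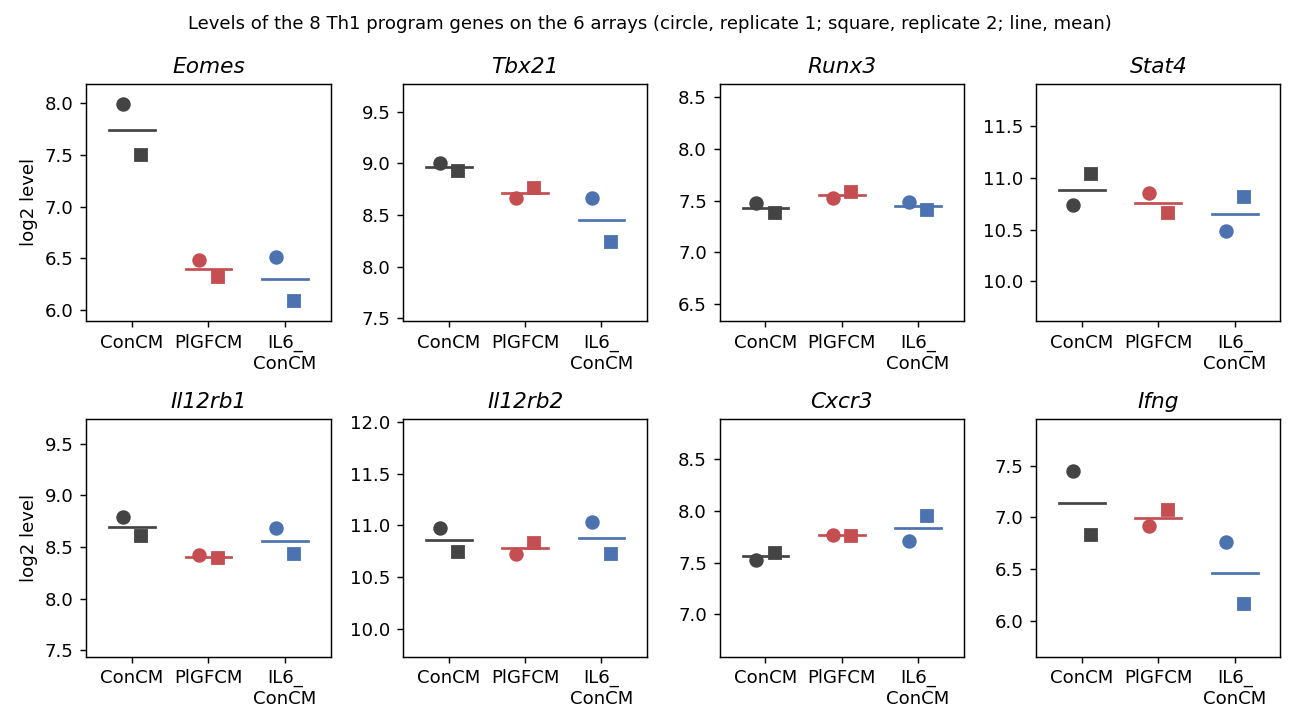
Log2 level (vertical axis) of each of the 8 genes on the 6 arrays, by medium, with circles for replicate 1, squares for replicate 2 and lines for the group means; each panel spans 2.3 log2 units. Eomes falls from 7.99 and 7.50 in ConCM to between 6.09 and 6.51 on the 4 treated arrays, and the other genes differ less.

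The members were chosen with earlier results of these data known, so the shares of all genes beside them are a description. In PlGFCM against ConCM, 1 of the 8 members passed, where 0.433% of all genes did, and 7 did not. At an unadjusted p under 0.05, 2 were lower (Eomes and Il12rb1), where 4.54% of all genes were lower. The arrays of these groups did not overlap for 5 members, Eomes, Tbx21 and Il12rb1 lower and Runx3 and Cxcr3 higher, where 38.2% of all genes did not overlap. The median log2 change of the members was -0.14, and that of all genes -0.01. Without PlGFCM replicate 2 the differences of the other 7 members were -0.30 for Tbx21, 0.091 for Runx3, -0.27 for Il12rb1, -0.14 for Il12rb2, -0.033 for Stat4, -0.22 for Ifng and 0.21 for Cxcr3, and none passed (limma adjusted p = 0.525 to 0.959). In IL6_ConCM against ConCM, 1 of 8 passed, where 0.113% of all genes did. At an unadjusted p under 0.05, 3 were lower (Eomes, Tbx21 and Ifng) and 1 higher (Cxcr3), where 3% and 2.62% of all genes were. The groups did not overlap for 4 members, Eomes, Tbx21 and Ifng lower and Cxcr3 higher, where the share of all genes was 34.1%, and the median was -0.19 against -0.01 for all genes. Between PlGFCM and IL6_ConCM limma passed 0 of 8, where 0.0316% of all genes passed. At an unadjusted p under 0.05 there were 2 here, Tbx21 and Ifng, both higher in PlGFCM, where 2.56% of all genes were higher at that threshold. The arrays did not overlap for 4 members, Tbx21, Runx3 and Ifng higher and Il12rb1 lower in PlGFCM, where 30.1% of all genes did not. The plot of differences with intervals sets the 3 comparisons side by side.

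**Figure D3:**
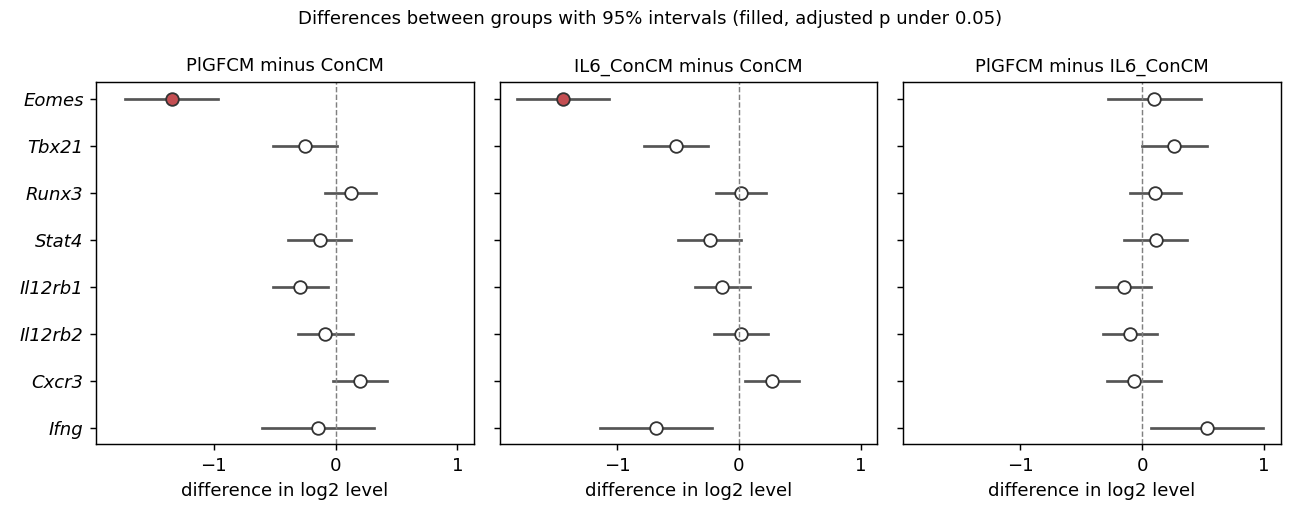
Differences in log2 level between groups (horizontal axis) for the 8 genes (vertical axis) in the 3 comparisons, with 95% intervals for single genes. Filled points passed at an adjusted p under 0.05; these are Eomes at -1.34 in PlGFCM and at -1.44 with IL6, both against ConCM.

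Eomes, Ifng and the CD8 T cell marker Cd8a were higher on replicate 1 in ConCM and in IL6_ConCM, but not all in PlGFCM. In ConCM, replicate 1 was above replicate 2 by 0.49 for Eomes, 0.073 for Tbx21, 0.61 for Ifng, 0.64 for Cd8a and 0.17 for Cd8b1. In IL6_ConCM it was above by 0.42 for Eomes, 0.42 for Tbx21, 0.60 for Ifng, 0.60 for Cd8a and 0.47 for Cd8b1, the other chain of CD8. In PlGFCM Eomes differed by 0.16, and Ifng and Cd8a had the other sign, at -0.15 and -0.39. IL6_ConCM replicate 2 was thus the lowest of the 6 arrays for Eomes, Tbx21, Ifng, Cd8a and Cd8b1. Between groups the CD8 markers differed by less than Eomes did. Cd8a was 0.07 lower in PlGFCM and 0.16 lower with IL6 than in ConCM, on the log2 scale, and Cd8b1 0.21 and 0.18 lower, with limma adjusted p of 0.719 to 0.997. The summed linear level of the 2 CD8 markers was 331.2 to 394.6 in ConCM, 303.4 to 331 in PlGFCM and 269.1 to 379.1 in IL6_ConCM, and neither was at 0. The brighter Cd8b1 weighs most in it. Of 9 listed markers of NK and innate-like cells, 8 were measured and none passed in the 3 comparisons. Their summed level was 626.6 to 709.9 in ConCM, 733.2 to 740.7 in PlGFCM and 661.5 to 688.8 in IL6_ConCM. Fcer1g, at 8.57 to 8.91, was the brightest and weighs most in this sum. In PlGFCM against ConCM it was 0.24 higher (limma adjusted p = 0.393). A negative change was seen there for 4 of the 8 markers, where 53.6% of all genes had one. Ncr1, a defining NK receptor, was at 4.57 to 5.15 on all arrays. The part of CD8 T cells or NK cells in the Eomes decrease was not tested.

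The genes whose pattern over the 6 arrays was most like that of Eomes were taken by the smallest root mean square difference after each gene was centred on its mean. They were Ifit1bl1 at 0.32 log2 units, Ifit1 at 0.33, Mup5 at 0.37, Nr4a3 at 0.37 and Olfr351 at 0.38, with Pearson's r of 0.84 to 0.96 over 6 arrays. These points share the 3 groups and the same arrays, and the r is a description. Ifit1, an interferon-induced gene, was at 8.27 on both ConCM arrays, 7.61 and 7.46 under PlGFCM, and 7.44 and 7.38 under IL6_ConCM. Nr4a3, a nuclear receptor induced by T cell receptor signals, was at 10.31 and 10.34 under ConCM, 9.81 and 9.76 under PlGFCM, and 9.57 and 9.27 under IL6_ConCM. The mean differences from ConCM in PlGFCM and with IL6 were -0.73 and -0.86 for Ifit1 and -0.55 and -0.91 for Nr4a3. No test is given for them, since the pattern itself chose these genes. The probe sets of Ifit1bl1, Mup5 and Olfr351 belong to families of similar sequence, so their assignment is uncertain. Mup5 (3.38 to 4.33) and Olfr351 (2.40 to 3.94) also had low levels. On every array they were below 4.34, the 25th percentile of the mean levels of all probe sets. In the plot of centred levels, Eomes has the widest range of the 10 genes shown.

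**Figure D4:**
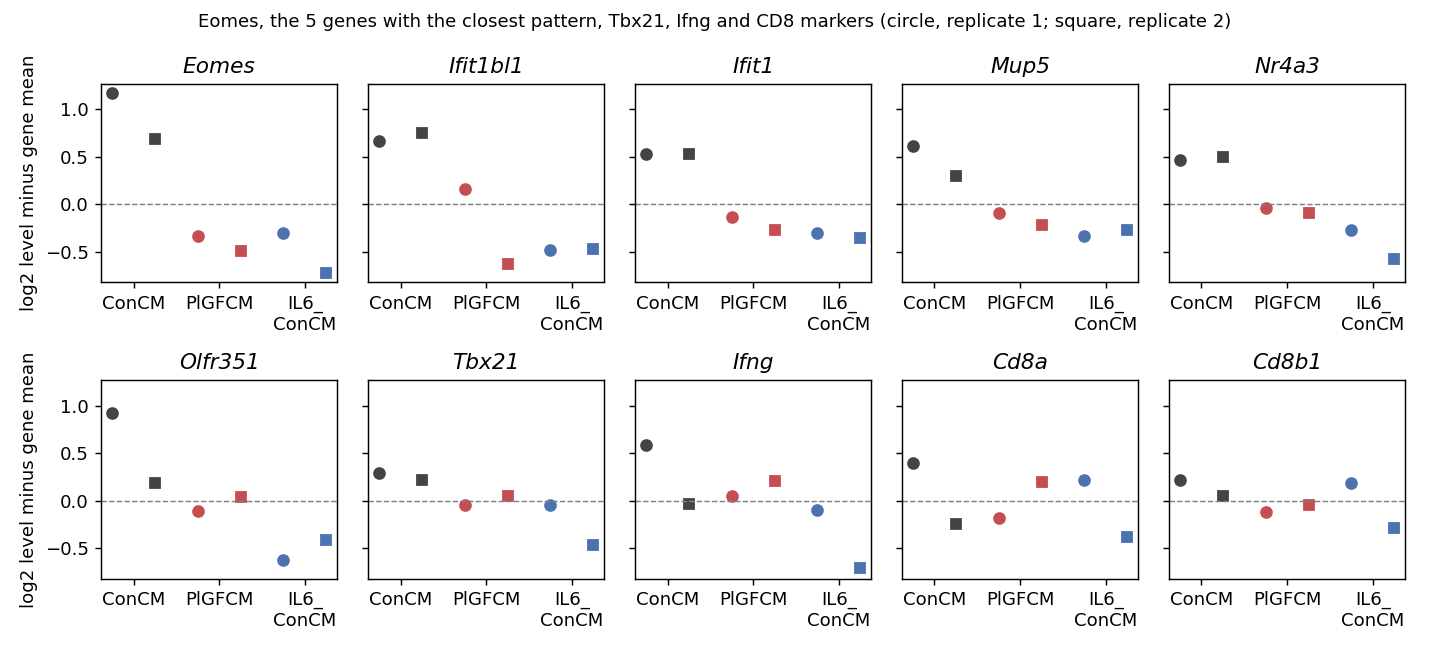
Log2 level minus the mean of the gene over the 6 arrays (vertical axis) on each array, by medium, for Eomes, the 5 genes closest to it, Tbx21, Ifng and the CD8 markers; circles are replicate 1 and squares replicate 2. Eomes, Ifit1 and Nr4a3 are high on both ConCM arrays, while Cd8a is highest on ConCM replicate 1 and lowest on IL6_ConCM replicate 2.

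Genes induced by interferon gamma mostly had negative differences with IL6, and none passed singly. Of 19 listed, 17 were measured, and 16 of the 17 had a negative log2 change in IL6_ConCM against ConCM, where 53.1% of all genes did. Their median was -0.22, against -0.01 for all genes, and the IL6_ConCM arrays lay below both ConCM arrays for 14 of the 17, where this held for 18.4% of all genes. Cxcl9, a ligand of Cxcr3, was at 8.57 and 8.73 under ConCM, 8.37 and 8.01 under PlGFCM, and 8.02 and 7.89 under IL6_ConCM. The difference with IL6 was -0.69 ± 0.12 (SE), with a limma adjusted p of 0.0586. Iigp1, an interferon-inducible GTPase, was at -0.48 (adjusted p = 0.0586), and Irf1, a transcription factor that interferon gamma induces directly, at -0.32 (adjusted p = 0.108). The exception was Gbp3 at 0.05. Leaving out any 1 array left 16 or 17 of the 17 below 0. An unadjusted p under 0.05 with a lower level was reached by 13 of the 17, where 3% of all genes did so, by 5 without ConCM replicate 2, by 7 without IL6_ConCM replicate 2 and by 6 without an intensity trend. Many of these genes also answer type I interferons.

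In PlGFCM the differences of this list were mostly negative too, and smaller at the median. Of the 17, 14 had a negative log2 change, where 53.6% of all genes did, with a median of -0.10, and 10 did so without PlGFCM replicate 2. Cxcl9 was at -0.46 (limma adjusted p = 0.202), Iigp1 at -0.30 (adjusted p = 0.232) and Irf1 at -0.12 (adjusted p = 0.647). Between the treated groups 13 of the 17 were higher in PlGFCM, with a median of 0.14, where 50.9% of all genes were lower there. Limma passed 0 of the 17 in these comparisons. At an unadjusted p under 0.05 there were 4, all lower, in PlGFCM against ConCM, where 4.54% of all genes were lower. In PlGFCM against IL6_ConCM there were 8, all higher, where 2.56% of all genes were higher. Without ConCM replicate 2 the 4 became 2 and the median -0.048, and without PlGFCM replicate 2 they became 2 and -0.075.

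**Figure D5:**
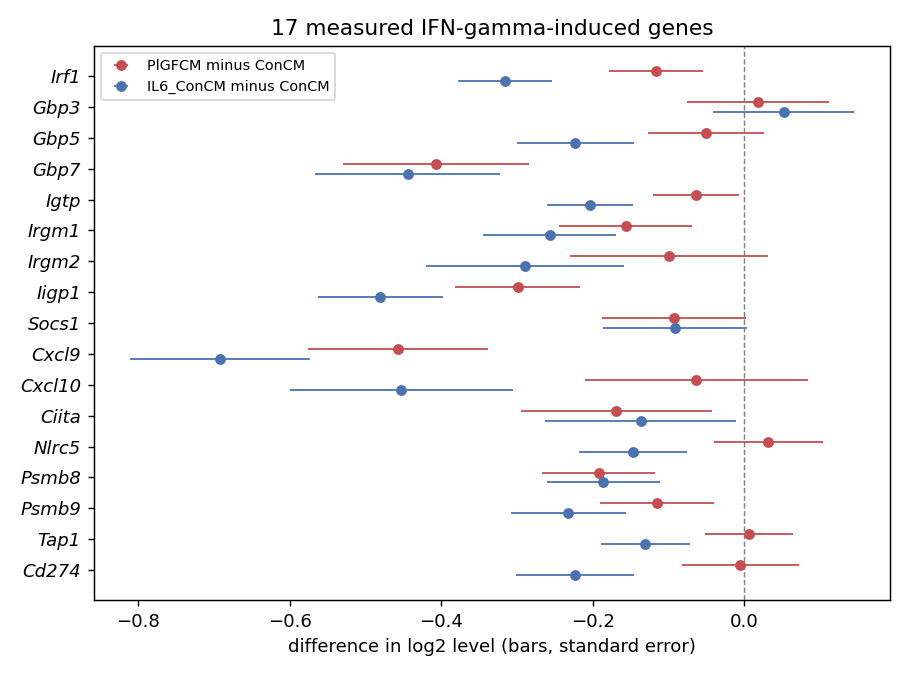
Differences in log2 level from ConCM (horizontal axis, bars for the standard error) of the 17 measured genes induced by interferon gamma, with red points for PlGFCM and blue points for IL6_ConCM. With IL6, 16 of 17 points lie left of 0, with Cxcl9 furthest at -0.69, and in PlGFCM 14 of 17 do.

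Among the receptors and transducers upstream of the Th1 factors, 1 gene passed in PlGFCM. Of 10 listed, 9 were measured. In PlGFCM against ConCM, where 0.433% of all genes passed, 1 of the 9 rose. This was Ifngr1, the ligand-binding chain of the interferon gamma receptor, at 10.91 and 10.94 under ConCM, 11.32 and 11.19 under PlGFCM, and 11.09 and 11.11 under IL6_ConCM. All treated arrays lay above the ConCM arrays. The change in PlGFCM was 0.33 ± 0.06 (SE) with a limma adjusted p of 0.0493, which was lost without any 1 of the 6 arrays (0.0502 to 0.387) and in 12 of the 16 alternatives run for it. Jak2, the kinase that serves the IL-12 and interferon gamma receptors, was at 0.33 (adjusted p = 0.0791). In IL6_ConCM against ConCM limma passed 0 of the 9, with 3 at an unadjusted p under 0.05, all higher, where 2.62% of all genes were higher. The groups in PlGFCM against IL6_ConCM did not pass for any of the 9, again with 3 at an unadjusted p under 0.05, all higher, where 2.56% of all genes were. All 9 were higher in PlGFCM, with a median of 0.15, where 49.1% of all genes were higher. Ifngr2, the signalling chain, was at 0.37 there (adjusted p = 0.729).

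Of 10 listed regulators beside the members, 9 were measured and limma passed 0 in each comparison. Prdm1, which encodes Blimp-1, was at 8.78 and 8.73 under ConCM, 9.10 and 9.17 under PlGFCM, and 9.02 and 9.22 under IL6_ConCM. All treated arrays were above the ConCM arrays, with differences of 0.38 and 0.36 (limma adjusted p = 0.113 and 0.258). Hopx, a cofactor of effector T cells, was at -0.19 and -0.37 (adjusted p = 0.714 and 0.644). At an unadjusted p under 0.05 there was 1 of the 9 in PlGFCM, 3 with IL6 and 1 between the treated groups, where the shares of all genes were 8.74%, 5.62% and 4.37%. Irf1, which is also on the list of genes induced by interferon gamma, was among the 3 with IL6 (-0.32, limma adjusted p = 0.108). It was also the 1 between the treated groups, 0.20 higher in PlGFCM (limma adjusted p = 0.817).

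Of 16 listed effector genes, 15 were measured. In PlGFCM against ConCM 2 rose, 1 fell and 12 did not pass, where 0.433% of all genes passed. With IL6 1 rose and 14 did not pass, where 0.113% of all genes passed. The one that fell was Gzmb, which encodes the cytotoxic protease granzyme B, at 9.09 and 8.89 under ConCM, 8.23 and 8.13 under PlGFCM, and 9.04 and 8.79 under IL6_ConCM. The PlGFCM arrays were below the other 4. Its change in PlGFCM was -0.81 ± 0.10 (SE) with a limma adjusted p of 0.00908, and with IL6 it was -0.08 (adjusted p = 0.997). The direct difference between PlGFCM and IL6_ConCM was -0.73 and did not pass (adjusted p = 0.0613). Gzma, which encodes granzyme A, was at 5.41 and 5.18 under ConCM, 6.17 and 6.28 under PlGFCM, and 6.49 and 6.34 under IL6_ConCM, and rose in both treated groups, by 0.93 and 1.12 (adjusted p = 0.0123 and 0.00692). Ccl3, a chemokine gene, was at 7.73 and 7.32 under ConCM and 8.43 and 9.36 under PlGFCM, and rose by 1.37 (limma adjusted p = 0.0311), or 0.91 without PlGFCM replicate 2. Ccl5, another chemokine gene, was 0.65 higher in PlGFCM than in ConCM and 0.52 higher than in IL6_ConCM. Neither difference passed (limma adjusted p = 0.0933 and 0.608).

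These calls depended on single arrays and on the variance model. Without PlGFCM replicate 2 none of Gzmb, Gzma and Ccl3 passed in PlGFCM against ConCM (limma adjusted p = 0.136, 0.143 and 0.153). Gzmb and Gzma were also lost without PlGFCM replicate 1 (0.0799 and 0.0882), Gzmb and Ccl3 without ConCM replicate 1 (0.0536 and 0.0518), and Gzma and Ccl3 without ConCM replicate 2 (0.118 and 0.214). The rise of Gzma with IL6 was lost without ConCM replicate 2 (0.0683). Without an intensity trend none passed (limma adjusted p = 0.213 for Gzmb, 0.127 and 0.162 for Gzma and 0.317 for Ccl3), and Ccl3 was also lost with quantile normalization (0.0567), a robust prior (0.0896) and the replicate block (0.0840). The median of the 15 effector genes was 0.13 in PlGFCM and 0.08 with IL6, both above the -0.01 of all genes. At an unadjusted p under 0.05, 5 were higher and 1 lower in PlGFCM, where 8.74% of all genes reached it in either direction. With IL6, 2 were higher (Gzma and Prf1) and 3 lower, where 2.62% and 3% of all genes were. The lower ones were Tnf at -0.30, Lta at -0.34 and Fasl at -0.30 (limma adjusted p = 0.493, 0.649 and 0.852).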

How the data were processed

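Expression was measured on Affymetrix whole-transcript arrays in 6 samples, 2 per group, with groups taken from the labelled treatment. The authors deposited a log2 level per probe set. The submitters' processing notes name Transcriptome Analysis Console as the tool; not given in the sources used here: its version, the background correction, the normalization and the genome build. The table holds 41345 probe sets, of which 23521 have 1 gene symbol, 1814 several and 16010 none in the platform annotation. Those with 1 symbol were kept, and the brightest was used per gene, for 22180 genes in all. Low levels were not filtered, and the values were not normalized again. Arrays have no read depth, and their number limits the precision.

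Differences were tested with limma 3.58.1 (R 4.3.3), fitting all 6 arrays with lmFit and moderating with eBayes along an intensity trend (3 residual degrees of freedom, median prior 8.14), with Benjamini-Hochberg adjustment over all genes. The scripts were checked on simulated data. The members, the gene lists and the tests were chosen with earlier results of these data known. Named genes are all members, from each list those that passed and otherwise up to 3 with the smallest p, cell type and sex-linked markers by their levels, and the 5 genes closest to Eomes. Gbp3, Fcer1g, Cd14, Adgre1, Cd79b, Pax5, Tnf, Lta, Fasl and Prf1 were named after their values were seen. Listed genes not matched to a probe set of that symbol alone were not analysed here. Alternatives were other normalizations, filters, probe set rules, variance models, array sets and weights, the replicate number as a block, and each array left out.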

Additional observations from a re-analysis of the deposited data

How the results depend on the processing

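The number of arrays, 2 per group, is the main limit, and with 1 array left out the lone array of its group is assumed to vary like the other groups. Of 17 alternatives per comparison, Eomes passed in 14 for PlGFCM against ConCM and in 15 for IL6_ConCM against ConCM. Without an intensity trend it did not pass (log2 changes of -1.34 and -1.44 with limma adjusted p of 0.176 and 0.242), so the number of members that passed was 0 in both. As each array was left out in turn, the Eomes change ran from -1.59 to -1.10 for PlGFCM, from -1.69 to -1.20 for IL6_ConCM and from -0.11 to 0.31 for PlGFCM against IL6_ConCM, where its sign turned. The number of members that passed ran from 0 to 1, from 0 to 2 and stayed at 0. The second member was Tbx21, without IL6_ConCM replicate 1. Signs also turned with single arrays left out, none of them near the threshold, for members with small differences. For PlGFCM against ConCM the ranges were -0.28 to 0.024 for Stat4, -0.20 to 0.032 for Il12rb2 and -0.45 to 0.16 for Ifng. For IL6_ConCM against ConCM they were -0.033 to 0.067 for Runx3 and -0.14 to 0.17 for Il12rb2. For PlGFCM against IL6_ConCM they were -0.054 to 0.27 for Stat4, -0.26 to 0.053 for Il12rb2 and -0.19 to 0.049 for Cxcr3. The labels do not state if the replicate numbers pair the samples. Replicate deviations correlated at -0.04, 0.11 and 0.03 between groups, which with 2 arrays per group cannot decide this. With the replicate block Eomes was at -1.34 (limma adjusted p = 0.00396) and -1.44 (0.00677), and 1, 1 and 0 members passed. Over all genes, the number that passed ran from 6 to 174 around 96, from 1 to 53 around 25, and from 0 to 10 around 7. Alternatives for the genes induced by interferon gamma were added after the data were seen, and 10 to 17, 16 to 17 and 2 to 4 of the 17 had a negative change in the 3 comparisons. With IL6, 2 of the 17 passed under either filter on low levels (lowest limma adjusted p = 0.0316 and 0.0378) and with array weights (0.0451), and 1 without IL6_ConCM replicate 1 (0.0424).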

Other observations

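Of 8 factors of other helper fates, 2 rose in PlGFCM against ConCM, where 0.433% of all genes passed. With IL6 limma passed 0, where 0.113% of all genes passed, with 2 at an unadjusted p under 0.05, both higher, where 2.62% of all genes were higher. Maf, a factor of Th2, Th17 and follicular helper cells, was at 7.31 and 7.62 under ConCM, 8.41 and 8.23 under PlGFCM, and 7.48 and 7.88 under IL6_ConCM. Ahr, the aryl hydrocarbon receptor, was at 7.70 and 7.72 under ConCM, 8.56 and 8.57 under PlGFCM, and 7.84 and 8.20 under IL6_ConCM. The PlGFCM arrays were above the other 4 for both genes, with changes of 0.85 and 0.85 from ConCM (limma adjusted p = 0.0287 and 0.00947), which were lost without PlGFCM replicate 2 (0.163 and 0.132) or without PlGFCM replicate 1 (0.272 and 0.118) or without ConCM replicate 2 (0.0665 and 0.0741), and for Maf also without ConCM replicate 1 (0.199). Without an intensity trend both calls were lost (limma adjusted p = 0.308 and 0.194), and with the replicate block that of Maf was (0.0545). The direct difference between PlGFCM and IL6_ConCM was 0.64 for Maf and 0.54 for Ahr and did not pass (adjusted p = 0.365 and 0.262). Batf, an AP-1 family factor, was 0.29 higher in PlGFCM and 0.25 higher with IL6 than in ConCM, and Irf4, its partner, was 0.27 higher in PlGFCM than in IL6_ConCM. None of these passed (limma adjusted p = 0.322, 0.725 and 0.468).

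Some markers of other cells moved with PlGFCM. Of 7 measured B cell markers Ms4a1 and Fcer2a fell, by 0.84 and 0.86, and of 8 myeloid markers Clec7a fell, by 0.60 (limma adjusted p = 0.0125, 0.0206 and 0.0383), where 0.433% of all genes passed. A negative change was seen for 3 of the 7 and 4 of the 8, where 53.6% of all genes had one. The myeloid Cd14 and Adgre1 were 0.67 and 0.38 higher, and the B cell markers Cd79b and Pax5 0.33 and 0.31 higher. None of these 4 passed (limma adjusted p = 0.0806, 0.334, 0.492 and 0.455). All 3 calls were lost when PlGFCM replicate 1, PlGFCM replicate 2 or ConCM replicate 2 was left out, and without an intensity trend (0.0996 to 0.308). That of Ms4a1 was also lost without ConCM replicate 1. The call of Clec7a was also lost with array medians subtracted (limma adjusted p = 0.0504) and with the replicate block (0.0748). The summed linear level was 739.5 to 779.6 in ConCM, 718.7 to 723.4 in PlGFCM and 715 to 732.4 in IL6_ConCM for the B cell markers. For the myeloid markers it was 648.4 to 735.6, 633.4 to 721.1 and 650 to 711.1, and no marker was at 0. Of 7 measured T cell markers limma passed 0 in each comparison. There were 1, 0 and 0 at an unadjusted p under 0.05, where the shares of all genes were 8.74%, 5.62% and 4.37%. Erythroid and platelet markers, 2 of 5 measured, had 0 that passed and 0 at an unadjusted p under 0.05. The part of these cells in the Eomes decrease was not tested.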
